A study of Drosophila melanogaster with 18 samples.

Results

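The genes described here are 43 potassium, sodium, calcium and chloride channel genes, their accessory subunits, an ion exchanger and the sodium pump, most of them known for their work in neurons. They were listed by name as a functional group, with earlier results of these data known. All 43 were found among the 10480 genes of the deposited comparison of foxo mutant with wild-type female heads, and 41 among the 10884 genes of the deposited male table. The sodium channel gene para and the calcium channel subunit gene Ca-beta were not matched by identifier in the male table, and their levels with age were not analysed here. RNA was measured by sequencing of polyadenylated RNA from heads of the fruit fly Drosophila melanogaster, reared at 25 °C. The wild type throughout was the w1118 control line, and the mutant was homozygous for the foxo allele c431 (foxoc431/c431), and what the allele changes in the gene is not stated in the labels. The female groups were wild type and mutant at day 3 after eclosion, and the male groups were wild type at days 3, 15, 30 and 45, with 3 libraries in each of the 6 groups. Whether the libraries of a group hold RNA of separately collected flies is not in the labels, and p-values then cover only the spread between these libraries, which may be technical.

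A neuron at rest is polarized because the sodium pump, an enzyme made of an alpha and a beta subunit, exports sodium and imports potassium, and because leak channels stay open. An action potential starts when voltage-gated sodium channels open and ends as potassium channels of several families open in turn, while calcium channels at the terminal trigger transmitter release. Many of these channels were first found in the fly through mutants that shake, are paralyzed by heat or lose their rhythms.

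With age the ion channel and pump genes were lower in the male head. From day 3 to day 45, 29 of 41 fell and 1 rose (limma, Benjamini-Hochberg adjusted p under 0.05 over all genes tested), against 18.3% of 8921 genes tested that fell and 17.4% that rose. All 41 passed the filter on low values. Their median log2 change was -0.52, and that of all genes tested was 0.004. The steepest falls were those of nrv3, a beta subunit of the sodium pump (2.21-fold lower), Teh3, an accessory subunit of the sodium channel (1.96-fold), NaCP60E, a channel of the sodium channel family (1.91-fold), and Atpalpha, the pump's alpha subunit (1.87-fold). The one that rose was ClC-b, a chloride channel family gene. In RNA of heads, fewer cells of a type and less RNA per cell cannot be told apart. In the foxo mutant females, 14 of the 43 were lower and 2 higher according to the authors' deposited table at an adjusted p under 0.05, where 6.51% of 9860 genes with an adjusted p were lower and 6.26% higher.

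The male libraries held 2999956 to 4102364 recovered reads each. Levels are normalized counts, which are read counts divided by 1 size factor per library. Female values library by library were not used here, and the mutant is described by the authors' own mean, fold change, standard error and adjusted p. The targeted gene foxo was 1.25-fold higher in the mutant according to the authors' deposited table, which does not check the genotype label while the lesion is unknown. The first day 3 library stood apart from the other day 3 libraries in muscle RNA. The summed level of 7 muscle marker genes was 13429.7 there, against 8764 and 8623 normalized counts in the others. The 41 genes themselves were also highest there, at 2.15% of its recovered reads against 1.79% and 1.97%. So were 12 neuron markers summed, at 46569 against 38959 and 41438 normalized counts. Without that library 26 of the 41 genes were lower at day 45 and 1 was higher, against 1271 and 1246 of 8886 genes tested.

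**Figure D1:**
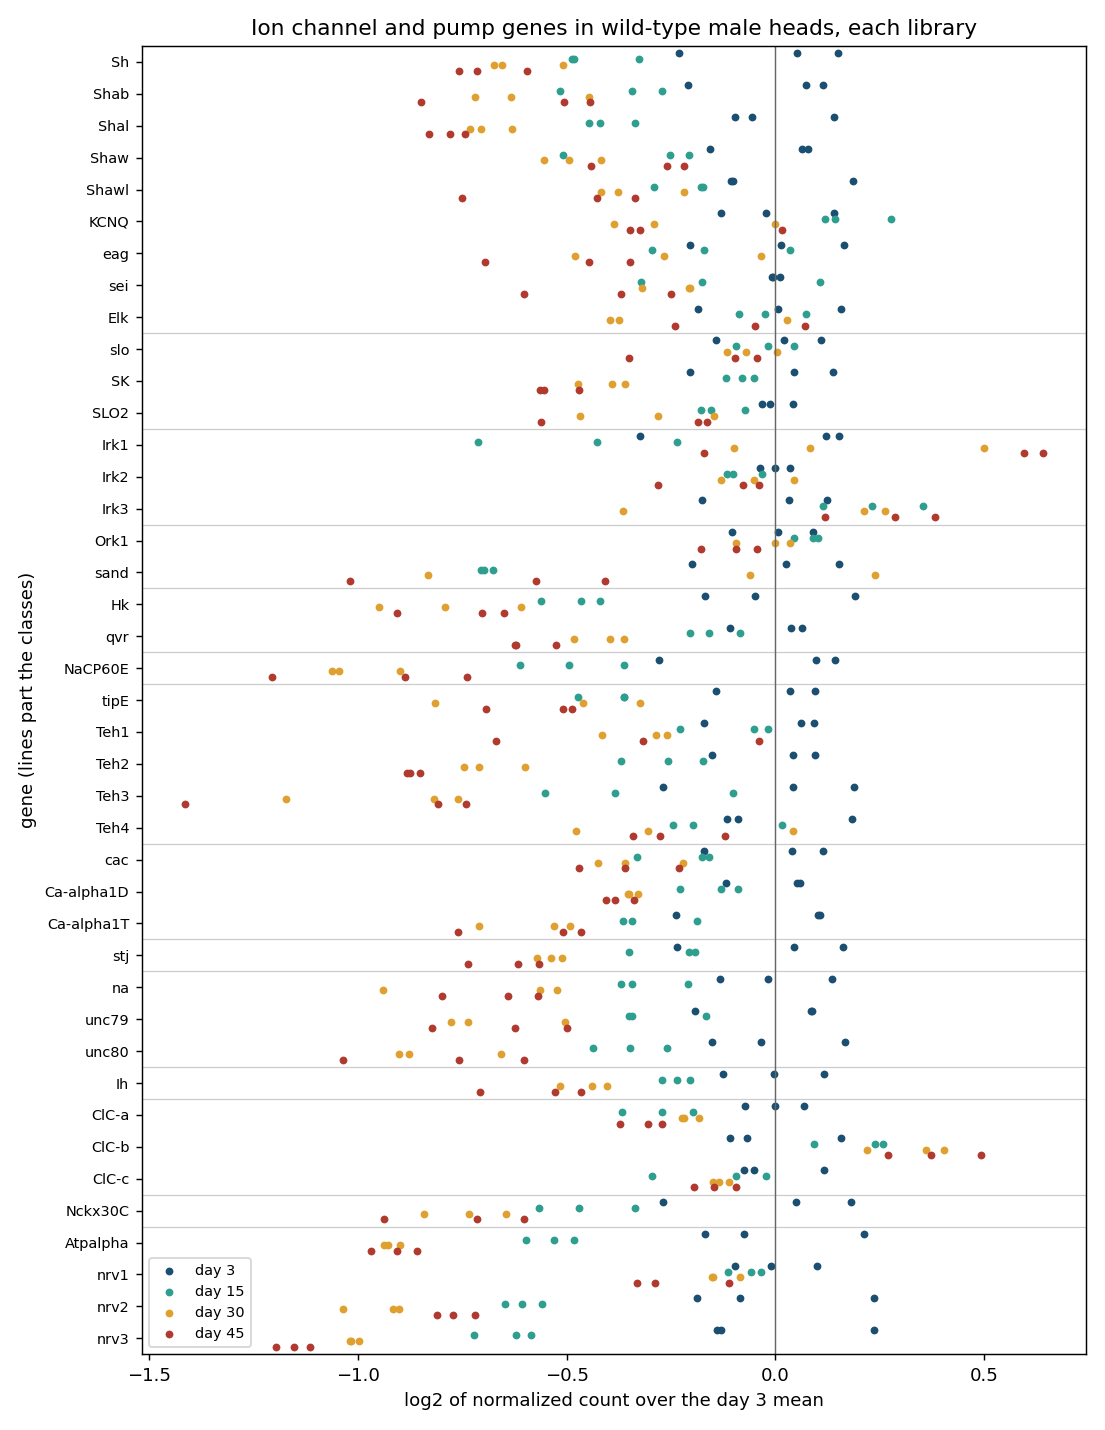
Each point is 1 wild-type male library, placed by the log2 of its normalized count over the mean of the day 3 libraries of that gene (x axis), with genes on the y axis and colours for the ages. For 33 of the 41 genes all day 45 libraries lie below all day 3 libraries, against 22.9% of all genes tested, and for 1 gene, ClC-b, all lie above, against 22.4%.

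Most of the fall stood by day 30. The median log2 change of the 41 genes from day 3 was -0.24 at day 15, -0.40 at day 30 and -0.52 at day 45, comparisons that share the day 3 libraries. At day 15, 14 of 41 were lower and 0 higher than at day 3 (limma adjusted p under 0.05), against 7.42% and 5.95% of all genes tested. That count went to 6 without the first day 3 library, 8 without the third day 3 library, 7 without the first day 15 library and 9 without the third day 15 library. The lower calls over all genes tested went from 662 to 330, 529, 368 and 442 in the same fits. Atpalpha, nrv2, nrv3, Sh, Shal and Hk were called lower at day 15 under every alternative tried. At day 30, 26 of 41 were lower and 1 higher than at day 3, against 16.5% and 15.0% of all genes tested by the same limma test. The gene higher at day 30 was ClC-b, a call lost without the second day 3 library or the second day 30 library.

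Between day 15 and day 30, 6 of 41 were lower (Atpalpha, nrv3, NaCP60E, Teh2, unc80 and SK) and 0 higher, against 0.998% and 0.919% of all genes tested. This count of 6 moved with single libraries. It was 2, 0 and 0 without the first, the second or the third day 15 library, and 0 and 1 without the second or the third day 30 library. Over all genes tested 89 were lower with every library, and 38, 4, 20, 10 and 15 in those fits. Without the first day 3 library the count of members was 10. It was 3, 3 and 12 without the first, the second or the third day 45 library. None of these libraries is part of that comparison, though all enter the shared estimate of the spread. Over all genes tested 130, 67, 57 and 154 were lower in those fits. Between day 30 and day 45, 0 of 41 were lower and 0 higher by limma, where 0.135% and 0.280% of all genes tested were, and edgeR and DESeq2 on the recovered reads also called 0. At an unadjusted limma p under 0.05, 2 of the 41 differed between day 30 and day 45. The share of all genes at that threshold was not taken, so the 2 are not read as changes. From day 15 to day 45, 14 fell and 1 rose, the latter Irk1, against 4.18% and 4.32% of all genes tested. The count of falls over that interval was 5 or 6 without the second or the third day 15 library and 9 without the second day 45 library. Over all genes tested 373 fell with every library, and 183, 188 and 218 in those fits. Irk1 was not called without the first or second day 15 library or the first or second day 45 library. By the moderated F test over the 4 ages, 30 of the 41 differed, against 31.5% of all genes tested.

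The sodium pump genes held 4 of the 5 highest levels per length of the group. All 4 fell by day 45, against 18.3% of all genes tested. Per kb of annotated exon, Atpalpha stood at 2902 ± 411 normalized counts at day 3 (SD, n = 3) and nrv3 at 1683 ± 261, above nrv2 (579 ± 91.7) and nrv1 (497 ± 33.7). Atpalpha (FBgn0002921, 3R, 20948714 to 20976239 in BDGP6, the assembly also called dm6), the catalytic alpha subunit, stood at 22479.7, 17259 and 18412 normalized counts at day 3, 12813, 13886 and 13421 at day 15, 10386, 10181 and 10112 at day 30 and 10697, 10339 and 9911 at day 45. The ages did not overlap from day 3 to day 30, and days 30 and 45 overlapped. It was 1.87-fold lower at day 45 than at day 3 (log2 change -0.90 with an SE of 0.10, limma adjusted p = 1.99e-06). For nrv3 (FBgn0032946, 2L, 21380000 to 21393319), a beta subunit of the nervous system, the libraries stood at 9465, 7335 and 7288 normalized counts at day 3, 4868, 5224 and 5356 at day 15, 3965, 4020.0 and 3963 at day 30 and 3612, 3502 and 3709 at day 45. Each age lay wholly below the one before it, though day 45 against day 30 was not called. The fall from day 3 to day 45 was 2.21-fold (log2 change -1.14 with an SE of 0.091, limma adjusted p = 1.23e-07).

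The beta subunit gene nrv2 (FBgn0015777, 2L, 6789770 to 6798862), which is active in glia as well as neurons, stood at 2437, 1948 and 1815 normalized counts at day 3, 1319, 1357 and 1402 at day 15, 1095, 1106 and 1009 at day 30 and 1256, 1211 and 1178 at day 45. Its day 45 libraries lay below those of days 3 and 15 and above those of day 30, though day 45 against day 30 was not called (log2 change 0.18, limma adjusted p = 0.581). From day 3 to day 45 it fell 1.69-fold (log2 change -0.75 with an SE of 0.090, limma adjusted p = 6.41e-06). The third beta subunit gene, nrv1 (FBgn0015776, 2L, 6778555 to 6786861), lies beside nrv2 on arm 2L. It stood at 1168, 1082 and 1020.3 normalized counts at day 3, 1064, 1046 and 1008 at day 15, 982, 981 and 1027 at day 30 and 866, 892 and 1009 at day 45, and only day 45 lay wholly below day 3. Its fall was smaller (log2 change -0.24, limma adjusted p = 0.0178), and the call was lost without the first day 3 library or the first or second day 45 library, and with the 2 ages fitted alone. Within each library the ratio of nrv3 to nrv1, both per kb, does not depend on scaling between libraries. It was 3.73, 3.12 and 3.29 at day 3, 2.11, 2.30 and 2.44 at day 15, 1.86, 1.89 and 1.77 at day 30 and 1.92, 1.81 and 1.69 at day 45. Every later library thus lay below every day 3 library in this ratio, which was not tested. The ratio of Atpalpha to the 3 beta subunits summed, per kb, was 1.05, 1.00 and 1.10 at day 3, 1.02, 1.06 and 1.02 at day 15, 0.981, 0.953 and 0.957 at day 30 and 1.07, 1.05 and 0.947 at day 45. All day 30 libraries lay below all day 3 libraries in this ratio, and days 15 and 45 overlapped day 3. In the mutant females nrv2 (log2 change -0.28 with an SE of 0.067, adjusted p = 0.000639) and nrv3 (-0.26, adjusted p = 0.0109) were lower according to the authors' deposited table. Atpalpha (-0.14, adjusted p = 0.101) and nrv1 (0.16, adjusted p = 0.166) did not pass according to the authors' deposited table.

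**Figure D2:**
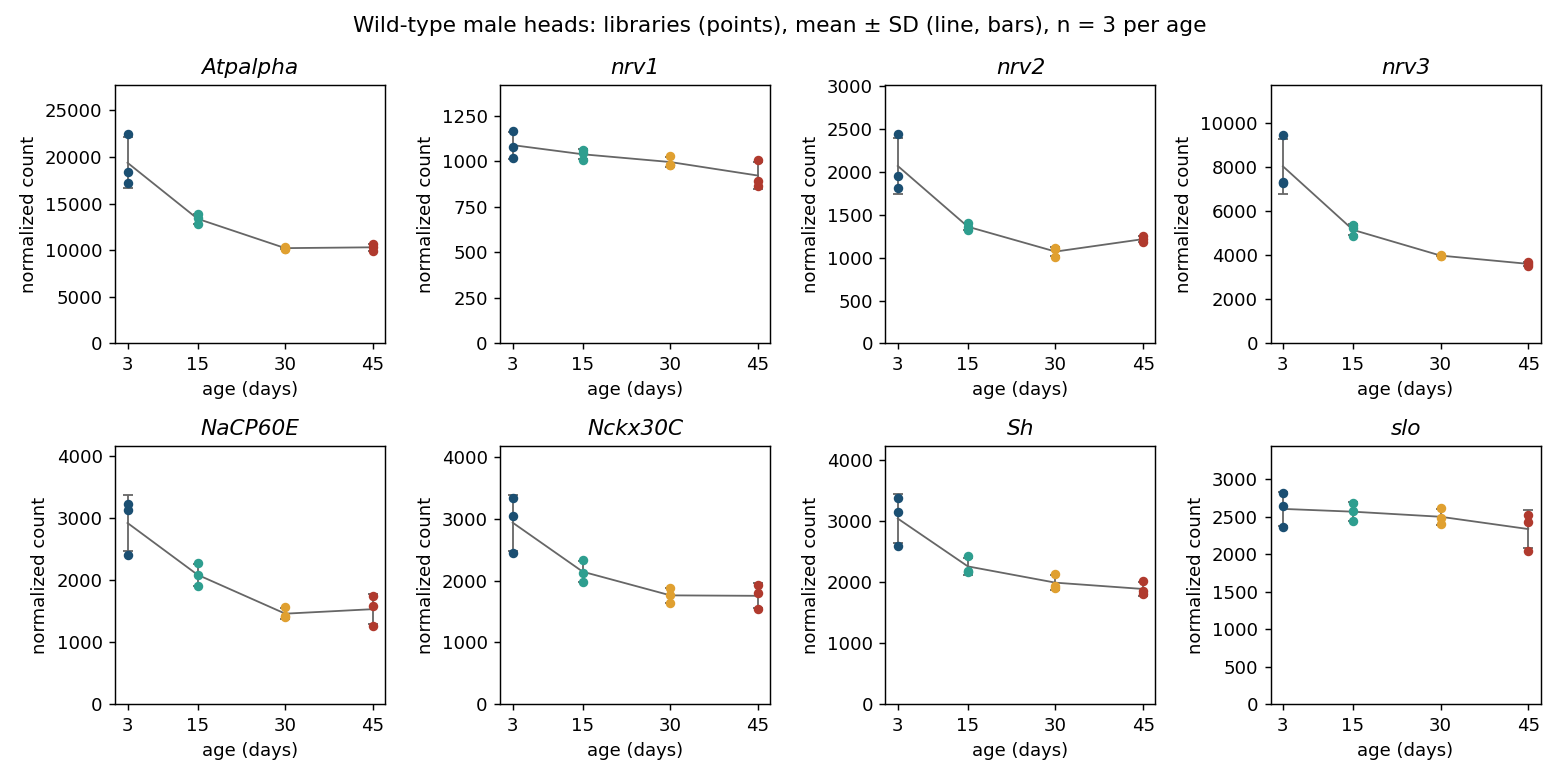
Normalized counts (y axis, from 0) against age in days (x axis) in wild-type male heads, with points for libraries and a line with bars for the mean ± SD (n = 3 per age). Atpalpha, nrv2, nrv3, NaCP60E, Nckx30C and Sh fell between days 3 and 30, while nrv1 changed less and slo was not called at any age.

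Among sodium channel family and accessory subunit genes, 4 of 6 measured with age were lower at day 45 and 0 were higher. Over all genes tested 18.3% were lower and 17.4% higher. The 6 do not include para, which was not matched in the male table. NaCP60E (FBgn0085434, 2R, 24891614 to 24921677) encodes a relative of the main sodium channel para. Its libraries stood at 3221, 2405 and 3123 normalized counts at day 3, 1908, 2267 and 2072 at day 15, 1562, 1413 and 1396 at day 30 and 1748, 1577 and 1264 at day 45. Days 3, 15 and 30 did not overlap, and days 30 and 45 did. The fall to day 45 was 1.91-fold (log2 change -0.93 with an SE of 0.12, limma adjusted p = 1.24e-05), and in the mutant the gene was 1.36-fold lower according to the authors' deposited table (log2 change -0.44 with an SE of 0.089, adjusted p = 3.09e-05). For para itself, the pore of the neuronal sodium channel, the mutant change was -0.24 (SE 0.093, adjusted p = 0.0694) according to the authors' deposited table, which did not pass.

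The accessory subunits, tipE and its homologs Teh1 to Teh4, are membrane proteins, and tipE is known to raise the current through para when both are expressed in frog oocytes. Teh2, Teh3 and Teh4 lie side by side with tipE on arm 3L (4174859 to 4193788), and Teh1 lies apart on 3R. Teh2 stood at 819.5, 716 and 850.1 normalized counts at day 3, 616, 706 and 666 at day 15, 487, 474 and 525 at day 30 and 441, 432 and 434 at day 45. Each age lay wholly below the one before, though day 45 against day 30 was not called. It fell 1.82-fold from day 3 to day 45 (log2 change -0.86 with an SE of 0.080, limma adjusted p = 5.00e-07). Teh3, of which 14.4% of the exon bases are shared with Teh2 on the same strand, stood at 208, 151 and 188 normalized counts at day 3, 124, 169.7 and 139.5 at day 15, 107, 103 and 80.8 at day 30 and 104, 109 and 68.3 at day 45. Its later ages lay below day 3 from day 30 on, and the fall to day 45 was 1.96-fold (log2 change -0.97 with an SE of 0.17, limma adjusted p = 0.000344). The founding member tipE stood at 244, 216 and 255 normalized counts at day 3, 172, 185 and 185 at day 15, 173, 191 and 135 at day 30 and 168, 170.1 and 147 at day 45, with all later libraries below all day 3 libraries. It fell 1.47-fold (log2 change -0.56 with an SE of 0.12, limma adjusted p = 0.00122), and 19.0% of its exon bases are shared with another gene, CG18675, on the same strand. Teh1 (-0.33, limma adjusted p = 0.0541) and Teh4 (-0.24, limma adjusted p = 0.194) did not pass at day 45. Teh1 did pass without the second day 3 library (adjusted p = 0.034) or without the first day 45 library (adjusted p = 0.00711) by limma. Teh2 went from 6.33, 6.69 and 8.08 times the level of Teh4 in the day 3 libraries to 4.69, 4.12 and 4.82 times at day 45, which do not overlap. In the mutant none of the 5 was called, and their log2 changes ran from -0.23 (Teh1) to 0.049 (Teh4) according to the authors' deposited table.

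Of 19 potassium channel genes and their accessory subunits, 11 were lower at day 45 and 0 higher, with a median log2 change of -0.40. Over all genes tested 18.3% were lower and 17.4% higher. Sh (FBgn0003380, X, 17924307 to 18063247), the founding A-type channel whose mutants shake under ether, stood at 3378, 2593 and 3154 normalized counts at day 3, 2171, 2425 and 2178 at day 15, 2138, 1905 and 1931 at day 30 and 2013, 1852 and 1799 at day 45. Days 3, 15 and 30 did not overlap. The fall to day 45 was 1.60-fold (log2 change -0.68 with an SE of 0.092, limma adjusted p = 2.33e-05). A pair of proteins acts on the Sh channel, Hk as its cytoplasmic beta subunit and qvr, also called sleepless, as a small anchored protein that promotes its expression and sleep. Hk stood at 1761, 1373 and 1492 normalized counts at day 3, 1117, 1153 and 1044 at day 15, 1011, 890.4 and 799 at day 30 and 947, 983 and 823 at day 45, again with no overlap from day 3 to day 30. It fell 1.68-fold (log2 change -0.74 with an SE of 0.10, limma adjusted p = 2.43e-05). The ratio of Hk to Sh within libraries was 0.521, 0.529 and 0.473 at day 3, 0.515, 0.475 and 0.479 at day 15, 0.473, 0.467 and 0.414 at day 30 and 0.471, 0.531 and 0.457 at day 45. Days 15 and 45 overlapped day 3 in this ratio, and all day 30 libraries lay below all day 3 libraries, the nearest pair by less than the digits given show. The gene qvr stood at 3383, 2999.5 and 3323 normalized counts at day 3, 2808, 3052 and 2898 at day 15, 2517, 2315 and 2458 at day 30 and 2101, 2102 and 2247 at day 45, and its ages did not overlap from day 15 on. Neither day 30 against day 15 nor day 45 against day 30 was called for qvr. It fell from day 3 to day 45 (log2 change -0.59 with an SE of 0.072, limma adjusted p = 8.43e-06). Per kb of exon it was the third most abundant of the 41 genes at day 3 (634 ± 40.4 normalized counts, SD, n = 3). Both accessory genes were lower in the mutant according to the authors' deposited table, Hk at a log2 change of -0.25 (adjusted p = 0.0179) and qvr at -0.25 (adjusted p = 0.0206), while Sh (-0.20, adjusted p = 0.0811) did not pass there.

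The other families of voltage-gated potassium channels first found in the fly are Shab, a delayed rectifier, Shal, the A-type channel of cell bodies and dendrites, and Shaw. Shab stood at 1909, 1569.8 and 1964 normalized counts at day 3, 1268, 1504 and 1429.5 at day 15, 1330.5, 1169 and 1101 at day 30 and 1334, 1276 and 1007 at day 45, with days 3 and 15 apart and the later ages overlapping. It was 1.51-fold lower at day 45 (log2 change -0.59 with an SE of 0.11, limma adjusted p = 0.000507). Shal stood at 667, 582 and 566 normalized counts at day 3, 444, 452 and 479.6 at day 15, 391, 371 and 364 at day 30 and 352, 361 and 340.3 at day 45. Every age lay wholly below the one before, though neither day 30 against day 15 nor day 45 against day 30 was called. The fall of Shal was 1.72-fold (log2 change -0.78 with an SE of 0.077, limma adjusted p = 1.01e-06), the largest of the 9 pore genes of this class. Shaw stood at 549.6, 471 and 555 normalized counts at day 3, 369.5, 441 and 455 at day 15, 393, 373 and 358 at day 30 and 452, 439 and 387 at day 45, lowest at day 30. Its log2 change to day 45 was -0.30 (limma adjusted p = 0.0196), a call lost without the first or the third day 3 library or the third day 45 library. The related gene Shawl had few reads, at 166, 136 and 136 normalized counts at day 3, 129, 119 and 129.5 at day 15, 125, 109 and 112 at day 30 and 108, 116 and 86.7 at day 45, and all of its later libraries lay below day 3. It fell by 0.49 on the log2 scale by day 45 (limma adjusted p = 0.00415). An antisense RNA shares 14.2% of the exon bases of Shawl, and without strand their reads cannot be told apart. None of these 4 was called in the mutant, where their log2 changes ran from -0.24 (Shal) to -0.18 (Shab) according to the authors' deposited table.

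The eag family, named for flies whose legs shake under ether, includes eag, sei and Elk. The gene eag stood at 701, 542 and 631 normalized counts at day 3, 555, 641 and 509 at day 15, 610.0, 519 and 448 at day 30 and 459, 385 and 491 at day 45. Its day 45 libraries lay below all libraries of days 3 and 15, and day 30 overlapped every other age. It fell 1.40-fold (log2 change -0.49 with an SE of 0.12, limma adjusted p = 0.00506). The gene sei, whose mutants seize in heat, stood at 259, 255 and 256 normalized counts at day 3, 205, 276 and 227 at day 15, 223, 223 and 206 at day 30 and 216, 199 and 169 at day 45, with days 30 and 45 below day 3. It fell by 0.40 on the log2 scale to day 45 (limma adjusted p = 0.00774), and genes on the opposite strand share 14.6% of its exon bases. Elk stood at 264, 231 and 293 normalized counts at day 3, 247, 276 and 258 at day 15, 268, 199.5 and 203 at day 30 and 276, 254 and 222 at day 45. All of its ages overlapped day 3, and day 45 against day 3 was not called (log2 change -0.065, SE 0.12, limma adjusted p = 0.707). In the mutant Elk had the largest fall of the 43 genes according to the authors' deposited table, 1.65-fold (log2 change -0.72 with an SE of 0.14, adjusted p = 1.89e-05). The changes of eag (-0.20) and sei (-0.13) did not pass according to the authors' deposited table. KCNQ, a relative of the vertebrate M-current channels, stood at 216, 179 and 193 normalized counts at day 3, 238, 217 and 213 at day 15, 196, 160.4 and 150.1 at day 30 and 154, 157 and 198 at day 45. It was highest at day 15, and it was called lower at day 45 than at day 15 (log2 change -0.40, limma adjusted p = 0.0479) but not than at day 3 (-0.21, adjusted p = 0.181). The call against day 15 was lost without any single library of day 15, and the gene passed against day 3 without the third day 45 library. Genes on the opposite strand share 27.4% of its exon bases.

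Among channels opened by ions inside the cell, slo, the large-conductance channel gated by calcium and voltage, stood at 2642, 2358 and 2811 normalized counts at day 3, 2441, 2687 and 2571 at day 15, 2612, 2404 and 2479.9 at day 30 and 2527, 2434 and 2043 at day 45. Its ages overlapped throughout, and it was not called in any comparison of ages (day 45 against day 3 -0.16, limma adjusted p = 0.172). Sh stood at 1.28, 1.10 and 1.12 times the count of slo within the day 3 libraries and at 0.797, 0.761 and 0.881 times at day 45, which do not overlap. In the mutant slo was lower according to the authors' deposited table (log2 change -0.26 with an SE of 0.081, adjusted p = 0.0136). SK, the small-conductance calcium-activated channel, stood at 1641, 1296 and 1539 normalized counts at day 3, 1374, 1439.9 and 1412 at day 15, 1162, 1076 and 1138 at day 30 and 1077, 1017 and 1009 at day 45. Days 3 and 15 overlapped, and days 30 and 45 lay below both. It fell 1.44-fold to day 45 (log2 change -0.52 with an SE of 0.080, limma adjusted p = 8.55e-05), and its change in the mutant was -0.13 (adjusted p = 0.455) according to the authors' deposited table. SLO2, related to the vertebrate Slack channels, stood at 757, 746 and 786 normalized counts at day 3, 675, 726 and 686 at day 15, 689.6, 629 and 552 at day 30 and 671, 681 and 517 at day 45, all later libraries below day 3. Its change of -0.30 at day 45 (limma adjusted p = 0.0249) was lost without the first or the third day 3 library or the third day 45 library.

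Inward rectifiers and leak channels help to set the resting potential, and none of these 5 genes was called at day 45 against day 3. Irk1 stood at 101, 138 and 141 normalized counts at day 3, 77.3, 94.3 and 108 at day 15, 118, 134 and 179 at day 30 and 192, 198 and 113 at day 45. It was lowest at day 15, and the libraries of days 30 and 45 lay above those of day 15. From day 15 to day 45 it was 1.75-fold higher (log2 change 0.81 with an SE of 0.20, limma adjusted p = 0.0182). Another annotated gene, CG46310, shares 61.0% of its exon bases on the same strand, so its reads are uncertain. Against day 3 it was called at day 45 without the third day 45 library alone (limma adjusted p = 0.0113). Irk2, Irk3 and the leak channel gene Ork1 were called in no age comparison, with log2 changes at day 45 of -0.13, 0.27 and -0.10 against day 3 (limma adjusted p = 0.206, 0.182 and 0.42), nor in the mutant according to the authors' deposited table. The leak channel gene sand, also called sandman and known from sleep-controlling neurons, was the least abundant of the group per kb. It stood at 20.8, 19.0 and 16.3 normalized counts at day 3, 11.5, 11.5 and 11.7 at day 15, 17.9, 22.1 and 10.5 at day 30 and 12.5, 9.22 and 14.1 at day 45. Its libraries rest on as few as 10 reads, and its change at day 45 of -0.62 did not pass (SE 0.29, limma adjusted p = 0.109). In the mutant sand was 1.56-fold higher at a mean of 29.7 normalized counts according to the authors' deposited table (log2 change 0.64 with an SE of 0.22, adjusted p = 0.0332).

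All 4 calcium channel genes measured with age were lower at day 45, against 18.3% of all genes tested. The 3 pore genes are cac, the presynaptic channel that triggers transmitter release, Ca-alpha1D, the L-type channel, and Ca-alpha1T, the T-type channel. Ca-alpha1T stood at 2512, 1977 and 2504 normalized counts at day 3, 1836, 2046 and 1811 at day 15, 1659, 1614 and 1424 at day 30 and 1689.7, 1638 and 1376 at day 45. Days 30 and 45 lay below both earlier ages. It fell 1.48-fold (log2 change -0.57 with an SE of 0.10, limma adjusted p = 0.000339). Ca-alpha1D stood at 1361, 1204 and 1354 normalized counts at day 3, 1114, 1227 and 1194 at day 15, 1025, 1041 and 1023 at day 30 and 1033, 986 and 1000.3 at day 45, with the same order of ages and a fall of 1.30-fold (log2 change -0.37 with an SE of 0.069, limma adjusted p = 0.000463). For cac the libraries stood at 1709.9, 1402 and 1622 normalized counts at day 3, 1254, 1414 and 1398 at day 15, 1354, 1229 and 1175 at day 30 and 1345, 1229 and 1139 at day 45. Days 30 and 45 lay below day 3, and the fall was 1.27-fold (log2 change -0.35 with an SE of 0.089, limma adjusted p = 0.00539). The accessory alpha2-delta gene stj, which helps bring cac to the terminal, stood at 1319, 1002 and 1217 normalized counts at day 3, 924, 1021 and 1032 at day 15, 794, 827 and 812 at day 30 and 797, 768 and 708 at day 45. Its days 30 and 45 lay below both earlier ages. It fell 1.55-fold (log2 change -0.63 with an SE of 0.090, limma adjusted p = 4.06e-05). In the mutant all 3 pore genes were lower, against 6.51% of genes with an adjusted p, according to the authors' deposited table. Ca-alpha1D had the second largest fall of the 43 genes (log2 change -0.57 with an SE of 0.090, adjusted p = 1.69e-08 according to the authors' deposited table), and cac (-0.33, adjusted p = 0.00127) and Ca-alpha1T (-0.30, adjusted p = 0.0023) had smaller falls according to the authors' deposited table. The accessory genes stj (0.049, adjusted p = 0.846) and Ca-beta (-0.17, adjusted p = 0.288) did not pass according to the authors' deposited table.

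The sodium leak channel is built from the pore protein na and the large partners unc79 and unc80, and the complex is known for its part in daily rhythms and in sensitivity to anesthetics. All 3 genes were lower at day 45, against 18.3% of all genes tested. All 3 were also lower in the mutant, against 6.51% of genes with an adjusted p, according to the authors' deposited table. The pore gene na stood at 678, 562 and 609 normalized counts at day 3, 477, 533 and 486 at day 15, 429, 417 and 321 at day 30 and 395, 416 and 354 at day 45. The gene unc79 stood at 2029, 1675 and 2033 normalized counts at day 3, 1499, 1704 and 1506 at day 15, 1349, 1147 and 1117 at day 30 and 1354, 1241 and 1081 at day 45. The gene unc80 stood at 2054, 1647 and 1786 normalized counts at day 3, 1351, 1529 and 1436 at day 15, 1160.3, 979.7 and 995 at day 30 and 1205, 1082 and 892 at day 45. In all 3, days 30 and 45 overlapped each other and lay below days 3 and 15. From day 3 to day 45 na fell 1.58-fold (log2 change -0.66 with an SE of 0.11, limma adjusted p = 0.000118), unc79 1.56-fold (log2 change -0.64, adjusted p = 9.92e-05) and unc80 1.73-fold (log2 change -0.79, adjusted p = 2.17e-05), all by limma. In the mutant unc80 (log2 change -0.53 with an SE of 0.11, adjusted p = 2.33e-05), na (-0.49, adjusted p = 4.62e-05) and unc79 (-0.28, adjusted p = 0.0117) were lower according to the authors' deposited table.

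Ih, the channel opened by hyperpolarization, changed in opposite directions with age and in the mutant. In males it stood at 2455, 2076 and 2259 normalized counts at day 3, 1876, 1966 and 1923 at day 15, 1711, 1671 and 1583 at day 30 and 1640.4, 1569.6 and 1386 at day 45, with no overlap from day 3 to day 30. It fell 1.48-fold to day 45 (log2 change -0.56 with an SE of 0.079, limma adjusted p = 3.42e-05). In the mutant females it was 1.21-fold higher according to the authors' deposited table (log2 change 0.27 with an SE of 0.074, adjusted p = 0.00372), one of 2 such genes with sand. Nckx30C, an exchanger that removes calcium in exchange for sodium with potassium, stood at 3334, 2442 and 3046 normalized counts at day 3, 1985, 2330.1 and 2123 at day 15, 1879.8, 1768 and 1641 at day 30 and 1939, 1793 and 1535 at day 45. Days 3, 15 and 30 did not overlap. It fell 1.67-fold (log2 change -0.74 with an SE of 0.11, limma adjusted p = 5.44e-05) and was lower in the mutant according to the authors' deposited table (log2 change -0.35 with an SE of 0.074, adjusted p = 7.27e-05). Chloride channel family genes went both ways with age. ClC-b, a homolog of lysosomal members of the family in vertebrates, stood at 197, 191 and 229.9 normalized counts at day 3, 219.6, 243 and 246 at day 15, 239.8, 273 and 264 at day 30 and 248, 290.0 and 267 at day 45. Days 30 and 45 lay above day 3. It was 1.30-fold higher at day 45 (log2 change 0.38 with an SE of 0.10, limma adjusted p = 0.0047). ClC-a stood at 851, 812 and 772 normalized counts at day 3, 672, 708 and 630.0 at day 15, 715, 696 and 698 at day 30 and 627, 658 and 673 at day 45, with every later library below day 3 and a fall of 0.31 on the log2 scale to day 45 (limma adjusted p = 0.00205). ClC-c did not pass (log2 change -0.14, limma adjusted p = 0.195), and none of the 3 was called in the mutant according to the authors' deposited table.

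**Figure D3:**
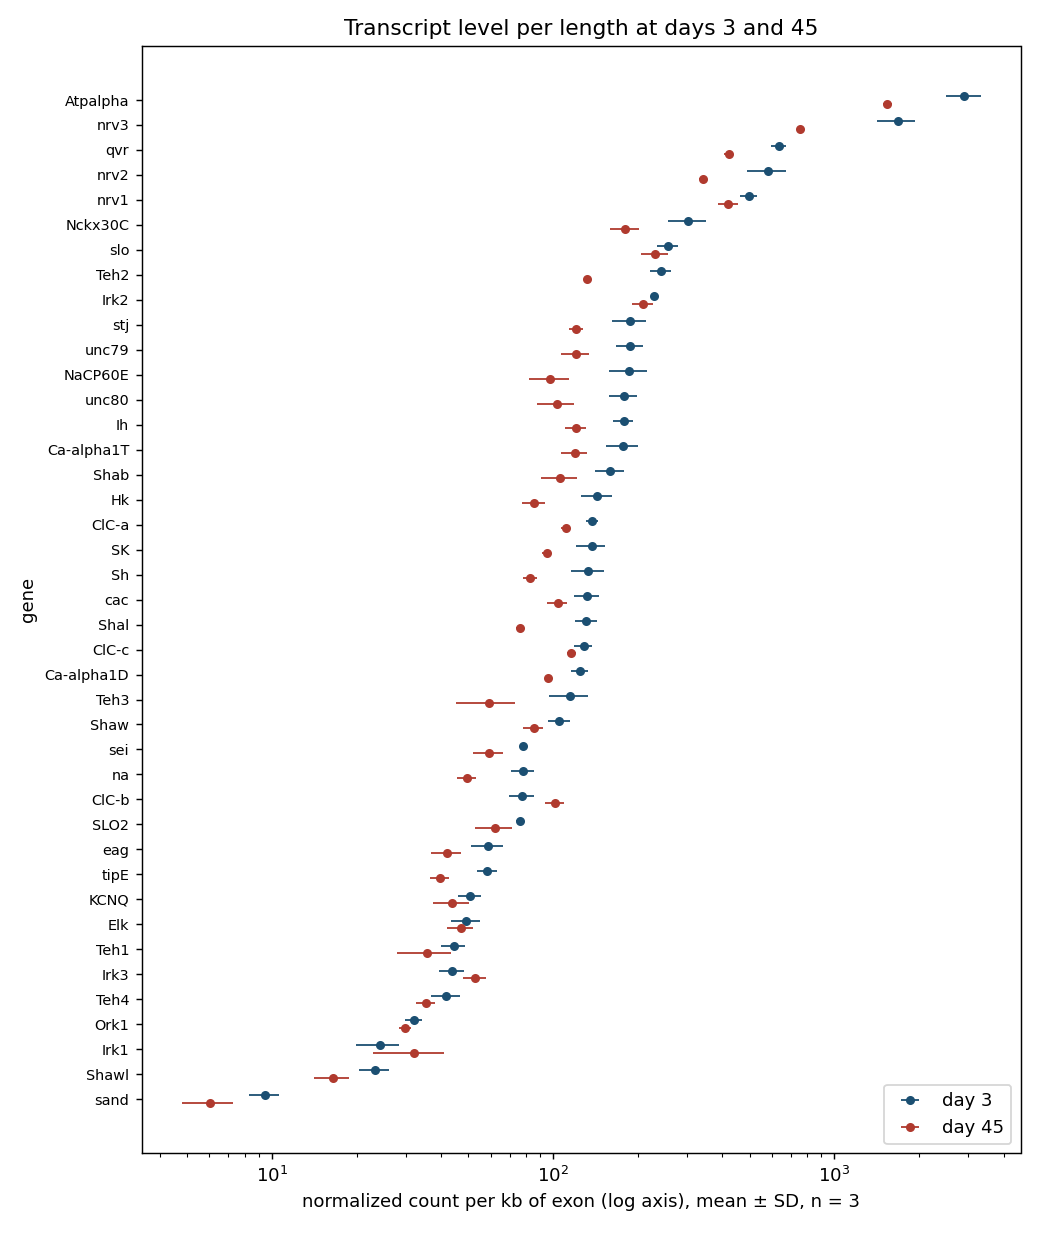
Mean normalized count per kb of annotated exon (x axis, log scale) with SD bars (n = 3) at days 3 and 45 in wild-type male heads, genes on the y axis in order of their day 3 level. Atpalpha was highest at both ages (2902 and 1544) and sand lowest (9.44 and 6.04), and most genes lie to the left at day 45.

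The order of levels per kb of exon at day 3 ran from Atpalpha to sand. Below the pump genes and qvr came Nckx30C (303 ± 46.9 normalized counts per kb, SD, n = 3), slo (256 ± 22.5) and Teh2 (242 ± 21.3). Between nrv2 and nrv1 the mean levels per kb were within the spread of the nrv2 libraries. From stj to Ca-alpha1T, 6 genes stood between 177 and 188 normalized counts per kb, closer together than their SDs. The pore of the leak channel, na, stood at 78.3 per kb, below its partners unc79 (188) and unc80 (178). Exon length here is that of all annotated exons together, so a gene with long alternative exons, such as Sh, reads lower per kb than its main transcript would. At day 45 Atpalpha stood at 1544 ± 58.9 and nrv3 at 756 ± 21.7 per kb. The 41 genes together took 2.15, 1.79 and 1.97% of all recovered reads in the day 3 libraries and 1.43, 1.36 and 1.21% in the day 45 libraries, which do not overlap.

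The comparisons of age and mutant use separate libraries, of different sex. Of the 41 genes measured in both, 12 were lower in both, taking mutant calls from the authors' deposited table. That is 85.7% of the 14 lower in the mutant and 41.4% of the 29 lower at day 45. The 29 are themselves 70.7% of the 41, so most of any set of these genes would be lower at day 45. For all 8571 genes in both comparisons, 43.4% of those lower in the mutant according to the authors' deposited table were lower at day 45, and 18.3% of all were. The 12 were Hk, qvr, NaCP60E, cac, Ca-alpha1D, Ca-alpha1T, na, unc79, unc80, Nckx30C, nrv2 and nrv3. Elk and slo were lower in the mutant and not called at day 45. Across the 41 genes the log2 change at day 45 and that according to the authors' deposited table had a Spearman correlation of 0.33, given as a description, and across all genes in both it was 0.25. In the mutant the median log2 change of the 43 was -0.20 according to the authors' deposited table, against 0.0042 for all genes with an adjusted p.

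**Figure D4:**
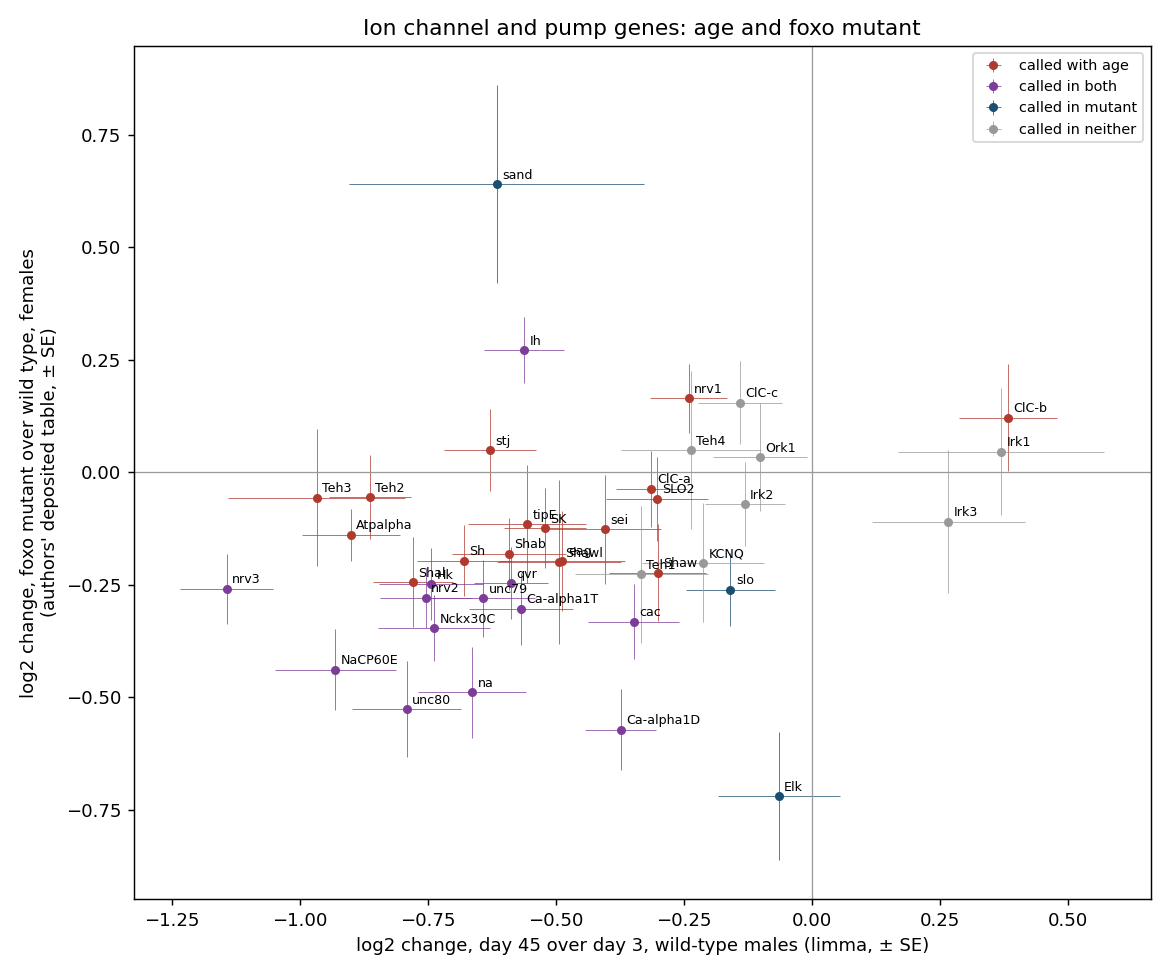
Log2 change from day 3 to day 45 in wild-type males (x axis, limma, ± SE) against the log2 change of foxo mutant over wild-type females according to the authors' deposited table (y axis, ± SE), 1 point per gene, coloured by which comparison called it at an adjusted p under 0.05. The 12 genes lower in both lie at the lower left, and Elk lies lowest in the mutant near 0 with age. Ih and sand, called higher in the mutant, lie below 0 with age, where sand was not called. The genes nrv1, stj, Teh4, ClC-c and Ork1, not called in the mutant, also lie above 0 there and below 0 with age.

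Markers of neurons were lower too. Over all genes tested, 18.3% were lower and 17.4% higher at day 45. In the mutant the shares were 6.51% and 6.26% of genes with an adjusted p, according to the authors' deposited table. Of 12 neuron markers 10 were lower and 1 higher at day 45 (median log2 change -0.62), with the transmitter release genes cpx, Syt1 (-0.95) and Snap25 (-0.71) the steepest. Their summed level was 38959 to 46569 normalized counts at day 3, 33816 to 36386 at day 15, 29743 to 31154 at day 30 and 27174 to 27929.5 at day 45. In the mutant 9 of the 12 were lower and 0 higher according to the authors' deposited table (median -0.26), among them Syx1A (-0.43), elav (-0.38) and fne (-0.32). Muscle, which also uses several of these channels, changed as well. Of 7 muscle markers tested 6 were lower at day 45, their summed level going from 8623 to 13429.7 normalized counts at day 3 to 4097 to 4814 at day 15 and 4265 to 4354 at day 45, with Act88F (-1.65), Mlc2 (-1.40) and Mhc (-1.21) the steepest. In the mutant 4 of 8 muscle markers were higher and 0 lower according to the authors' deposited table. Of 9 photoreceptor markers 7 were lower at day 45. Their summed level was 177609.9 to 203330.0 normalized counts at day 3 and higher, 232993 to 249193, at day 15. It was 190019 to 232300 at day 30 and 107477 to 188591 at day 45, which overlapped day 3. In the mutant 3 of 9 were lower and 0 higher according to the authors' deposited table. Of 9 glial markers 5 rose and 3 fell by day 45, as wrapper (0.87) and Eaat1 (-0.57), with a summed level of 11242 to 12839.8 normalized counts at day 3 and 10533 to 11243 at day 45. In the mutant 0 of the 9 were called in either direction according to the authors' deposited table. Fat body markers gave 2 higher and 0 lower of 7 tested at day 45, and 5 higher and 1 lower of 8 in the mutant according to the authors' deposited table. Blood cell markers gave 3 higher and 4 lower of 8 at day 45, and 6 higher and 0 lower of 8 in the mutant according to the authors' deposited table. The part of these cell types in the changes of the channel genes was not tested.

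Other ion transport genes also changed with age. The shares over all genes tested were 18.3% lower and 17.4% higher at day 45. In the mutant they were 6.51% and 6.26% according to the authors' deposited table. Of 38 further channel, exchanger and transporter genes, 33 were tested with age, and 14 were lower and 2 higher at day 45 (median log2 change -0.29). The steepest falls were those of SERCA, the calcium pump of the sarcoplasmic and endoplasmic reticulum (-1.76, SE 0.13, limma adjusted p = 4.95e-08), kcc, a potassium and chloride cotransporter (-1.07), and Calx, the sodium and calcium exchanger (-0.90). In the mutant 9 of 35 were lower and 2 higher according to the authors' deposited table, with zyd, an exchanger of glia, at -0.52, and the sodium and proton exchanger gene Nha1 at 0.72. Of 8 innexin genes, which encode gap junction channels, 4 were tested with age and 2 fell by day 45, shakB (-0.73) and Inx2 (-0.48). In the mutant shakB was lower (-0.30) and ogre higher (0.44) among 5 innexin genes according to the authors' deposited table.

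The channel and pump genes share a feature that the choice by name did not use, their length. Their annotated exons cover a median of 5892 bases against 2230 for all genes tested, from 1586 (Teh3) to 22801 (Sh), and their median span on the chromosome is 17326 bases against 3091. Across all 8756 tested genes with an annotated length, exon length and the change from day 3 to day 45 had a Spearman correlation of -0.18. For the mutant change according to the authors' deposited table it was -0.24, across 9744 genes. Among tested genes of at least 3754 bases, the upper quartile and a limit chosen after the data were seen, 30.4% of genes were lower at day 45 and 13.4% were lower in the mutant according to the authors' deposited table. Of the 31 channel and pump genes of that length 24 were lower at day 45, and of the 10 shorter ones 5 were. For the mutant the counts were 13 of 33 and 1 of 10 according to the authors' deposited table, the latter nrv2. The share of all shorter genes was not taken for either comparison, so the counts of shorter genes are not read as results about length. Among the channel and pump genes themselves, exon length and change had a Spearman correlation of -0.28 with age (41 genes) and -0.49 in the mutant (43 genes, the authors' deposited table). The part of transcript length in these changes was not tested. By chromosome arm the falls at day 45 were spread. They were 7 of 8 tested genes on X and 7 of 8 on 2L. On 2R they were 6 of 10, on 3L 5 of 7 and on 3R 4 of 8, against 18.3% of all genes tested.

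**Figure D5:**
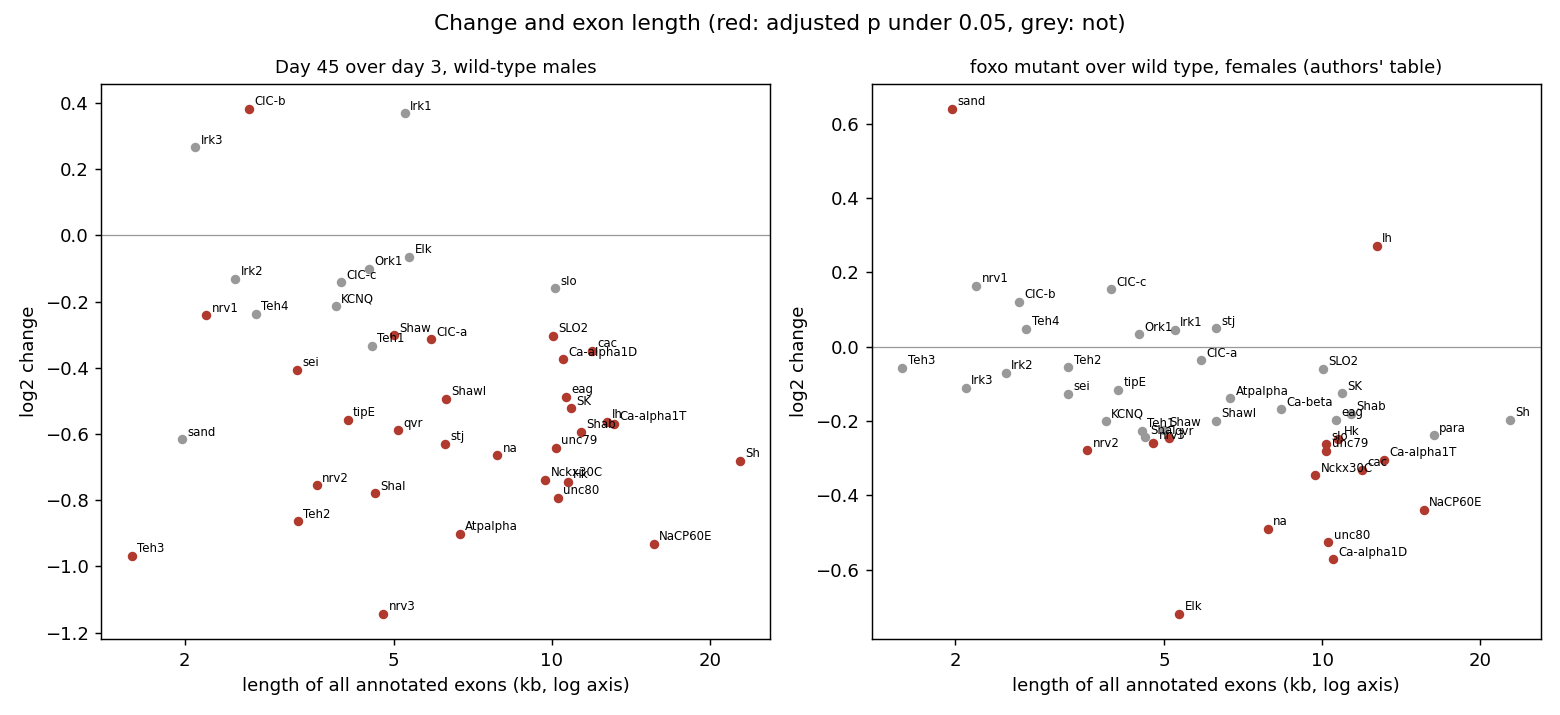
Log2 change (y axis) against the length of all annotated exons in kb (x axis, log scale) for each channel and pump gene, with day 45 over day 3 in wild-type males on the left and foxo mutant over wild type according to the authors' deposited table on the right, red where the adjusted p was under 0.05. At day 45, 24 of the 31 genes of at least 3754 bases were lower, against 30.4% of all tested genes of that length, and 5 of the 10 shorter ones. In the mutant, 13 of the 33 genes of that length were lower according to the authors' deposited table, against 13.4% of all, and 1 of the 10 shorter ones. The share of all shorter genes was not taken.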

How the data were processed

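Polyadenylated RNA from 18 libraries was sequenced by the authors, per the labels' protocols, with a kit that the labels do not say marks strand. The submitters' processing notes name STAR, HTSeq, DESeq and the dm6 assembly. The authors deposited a signal per gene for the 12 male libraries, read counts divided by size factors. Division of each column by its smallest step gave whole reads for 100% of values within 0.001 reads, 2999956 to 4102364 per library. For the females the authors deposited a table with the mean signal, the log2 fold change, its standard error, the test statistic (a score), p-values and adjusted p-values. That table replaced the planned limma fit, since values per female library were not used here, and its fold changes may be shrunken. Male values were tested with limma 3.58.1 (R 4.3.3, trend) as log2(value + 1) in 1 model of 4 ages, without a replicate term, for the 8921 genes that reached a value of 10 in 3 or more libraries, with Benjamini-Hochberg adjustment. Fold changes are on that log2 scale and understate changes of low genes. Alternatives used edgeR 4.0.16, DESeq2 1.42.0, other pseudocounts, filters and scaling, and left out each library. When tested on simulated data the fit missed a part of the small changes, so a gene that did not pass may still have changed. Coordinates and exon lengths came from Ensembl release 115. Members were matched by identifier in the male table, and female names were matched by symbol or synonym. Genes were given all library values where called in any comparison, and of each marker list at most 3 called genes were named per comparison. The members and lists were chosen with earlier results of these data known.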

Additional observations from a re-analysis of the deposited data

How the results depend on the processing

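No member changed direction with a call under any alternative tried. Of the calls at day 45 against day 3, 27 of 30 held under every alternative, as did 23 of 27 at day 30 against day 3, 6 of 14 at day 15 against day 3, 5 of 15 at day 45 against day 15, 0 of 6 at day 30 against day 15 and 10 of 16 in the mutant. Leaving out 1 library at a time gave 26 to 30 lower and 1 to 2 higher at day 45 against day 3, 23 to 30 lower and 0 to 1 higher at day 30 against day 3, 6 to 20 lower at day 15 against day 3, 5 to 15 lower and 0 to 1 higher at day 45 against day 15, and 0 to 12 lower and 0 to 1 higher at day 30 against day 15. Over all genes tested the lower calls ran from 1271 to 1640, 1100 to 1584, 330 to 788, 183 to 425 and 4 to 154, in the same order. For day 30 against day 15 the count of lower members was 3 with no filter on low values, 10 with DESeq2 on recovered reads, and 12 with 1 higher when the 2 ages were fitted alone. Over all genes tested 76, 120 and 167 were lower in those fits, and the cause was not tested. With the replicate number as a block the count of lower members was 3, and the block moved no other count by over 1.5 times. Same-numbered libraries of different ages had correlated deviations above 0.1 in 2 of 18 pairs, and 4 of 12 libraries correlated best with their own number, so the numbers were not taken to pair them. In the mutant 9 genes were lower and 1 higher at an adjusted p under 0.01, and 1 was higher with a mean of at least 50 adjusted anew, which leaves out sand. Depth limits sand most, and 3 libraries per group limit every comparison.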
